A study of Arabidopsis thaliana with 4 samples.

Results

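The 10 genes described here encode the main seed storage proteins of Arabidopsis thaliana. They are the 12S globulins CRA1, CRB, CRC and AT1G03890, the 7S vicilin-like PAP85, and the 2S albumins SESA1 to SESA5. They were chosen by locus, from a list of the storage protein families, and are 10 of 25382 genes to which a probe of the array could be matched. Their levels were measured in whole Col-0 seedlings of 3 genotypes, on 4 one-colour Agilent arrays. All 3 genotypes were grown untreated in short days (8 h light, 16 h dark) at 22 °C on sucrose-containing agar, and were harvested 14 days after germination.

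The WT group was the unmodified Col-0 plant and had 1 array. The AtC3H17 OX group overexpressed AtC3H17, which encodes a CCCH-type zinc finger protein, and had 2 arrays. The atc3h17-1 group had 1 array and carried, by its name, a mutant allele of that gene. The labels give neither the promoter that drives the transgene, nor how many independent lines or plants were pooled, nor the nature of the mutation. The AtC3H17 OX arrays had a median absolute log2 difference of 0.0322 between them over 30340 probes, below the median SD of repeated spots on each of them (0.0538 and 0.0455). WT differed from them by 0.272. They were counted as 1 sample, so each genotype is 1 sample and no value below measures the spread between plants. All 4 arrays came from the same slide and the same scan.

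Seed storage proteins are made in the maturing embryo, sorted to protein storage vacuoles and cut there into their mature chains by vacuolar processing enzymes. They are broken down at germination to feed the seedling. The 12S cruciferins are legumin-type globulins, PAP85 belongs to the vicilin-type globulins, and the small 2S albumins are rich in cysteine. Their genes are switched on by ABI3, FUS3 and LEC2 together with bZIP factors, and are held silent after germination by VAL repressors, the chromatin remodeller PKL and Polycomb complexes.

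The labels were checked against AT2G02160, taken as AtC3H17 from general knowledge. On the AtC3H17 OX arrays 2 of its 3 probes stood 4.57-fold and 5.6-fold above WT, and the brightest one in WT stayed at 0.981-fold. On the atc3h17-1 array that probe was lost in the background, 502-fold or more below WT, another was so by 42.7-fold or more, and the remaining one was at 1.41-fold. The probes of this gene thus disagreed in both lines. Green shoot markers, which a whole seedling should hold, were above the 75th percentile on all 4 arrays. Their differences from WT ran from 0.08 to 0.35 in AtC3H17 OX and from -0.04 to 0.08 in atc3h17-1 over 5 genes. Those furthest from WT in AtC3H17 OX were LHCB2.1 at 0.35, CAB2 at 0.17 and PSAD-1 at 0.10. Root markers had a median difference from WT of -0.53 in AtC3H17 OX, where 1 of 7 was at least 2-fold lower, against 2.76% of all genes. That was PRP3 at -1.19, beside CASP1 at -0.77 and EXPA7 at -0.67, whereas NRT2:1 was higher, at 0.67. In atc3h17-1 their median was -2.36 and 5 of 7 were at least 2-fold lower, against 4.2% of all genes.

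A pair of the 10 storage protein genes stood far above the others. CRA1 and CRC were not well above background in WT and atc3h17-1 and were bright on both AtC3H17 OX arrays, with lower bounds on the fold over WT of 25.1 for CRA1 and 12.2 for CRC. CRB and all 5 albumins were not well above background on any of the 4 arrays. PAP85 and AT1G03890 were dim, and lay highest on the AtC3H17 OX arrays with a smaller margin. The 10 genes had 18 probes, of which 7, from 4 genes, were kept because 1 or more of the genotypes had them well above background on each of its arrays. The remaining 11 probes were not, among them 3 of CRB, 1 of AT1G03890 and 7 of the albumins.

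**Figure D1:**
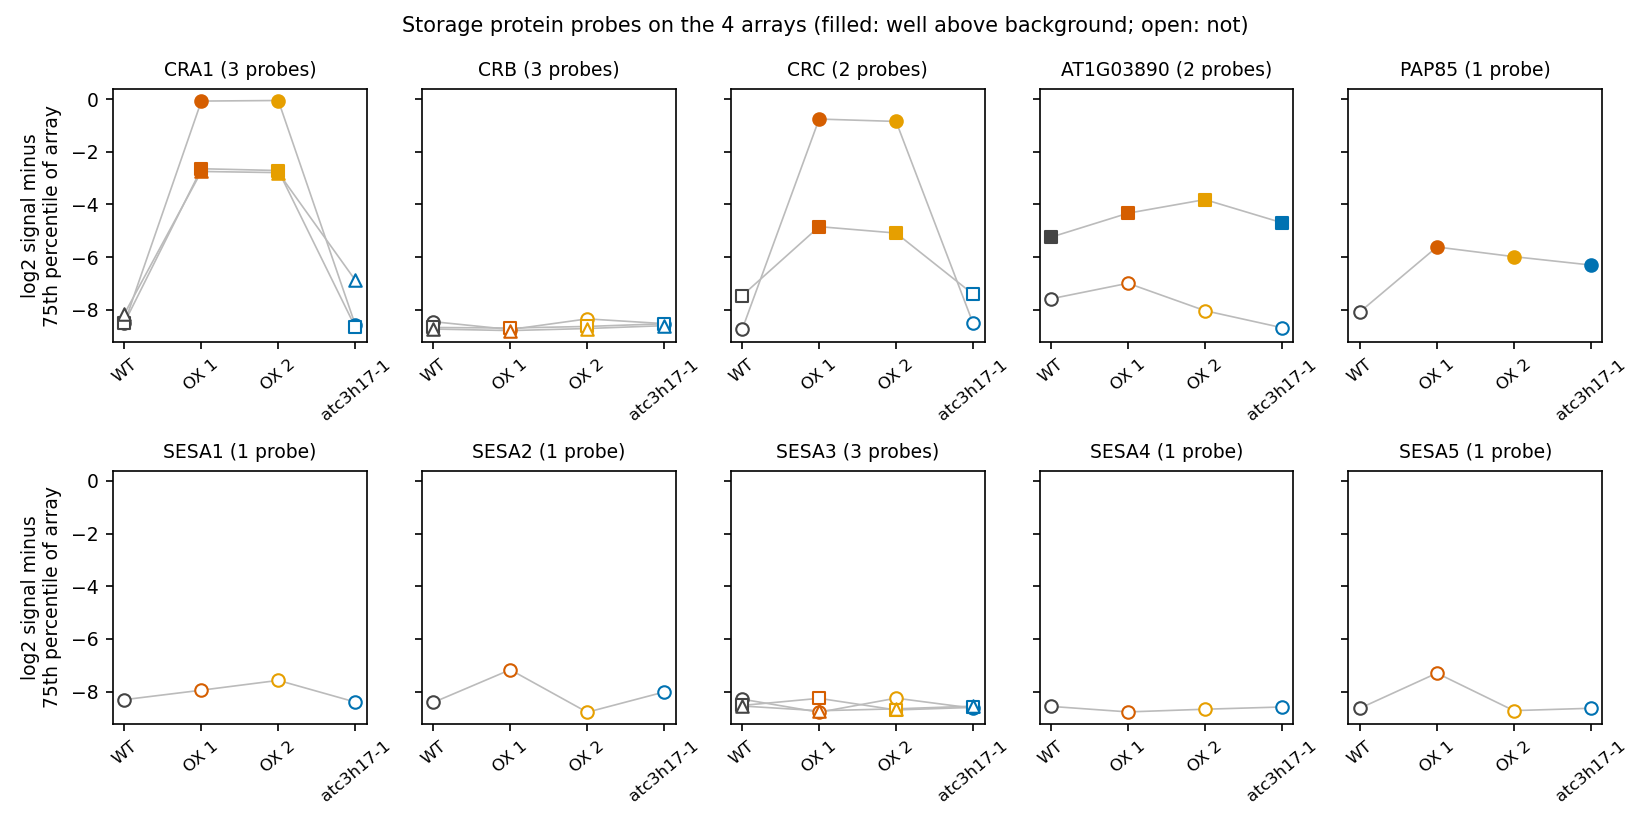
Level of each storage protein probe on each array, as log2 of the processed signal minus the 75th percentile of that array. Each line joins the values of 1 probe, and filled symbols mark spots well above background. CRA1 and CRC stand well above background on both AtC3H17 OX arrays (OX 1 and OX 2), whereas CRB and SESA1 to SESA5 have open symbols on all 4 arrays.

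CRA1 (AT5G44120), also called cruciferin A, was measured by 3 probes designed on 2 transcript models. Probe A_84_P20648 had a processed signal of 9.60 in WT, 3234 and 3259 on the AtC3H17 OX arrays and 8.66 in atc3h17-1. The scanner software's own error for these spots was 9.56, 323.5, 326 and 8.62. The AtC3H17 OX values lay far above those of both other genotypes, which were of the size of their error.

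Probe A_84_P810531 had signals of 9.72 in WT, 545 and 516 in AtC3H17 OX and 8.16 in atc3h17-1. Probe A_84_P810533 had 12.3 in WT, 508 and 489 in AtC3H17 OX and 28.0 in atc3h17-1. On all 3 probes both AtC3H17 OX arrays lay above the other genotypes. The 3 probes were kept through AtC3H17 OX alone, which fixes this direction. They read the same RNA samples, so their agreement is no replicate check. As bounds, AtC3H17 OX exceeded WT at least 85.9-fold, 14.0-fold and 13.2-fold by the respective probes, and atc3h17-1 at least 82.3-fold, 13.4-fold and 12.6-fold. A bound sets the bright signal against the lowest signal called well above background on the dim array (38.8 on WT, 38.0 on atc3h17-1), so the true ratio may be larger.

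CRC (AT4G28520), or cruciferin C, is listed as CRU3 in the reference table and had 2 probes on 2 transcript models. Probe A_84_P11966 had signals of 8.17 in WT, 2014 and 1879 in AtC3H17 OX and 9.03 in atc3h17-1, with software errors of 8.14, 202, 188 and 8.99. Probe A_84_P807923 was far dimmer in AtC3H17 OX, at 119 and 99.7, against 19.8 in WT and 19.4 in atc3h17-1. On both probes WT and atc3h17-1 lay within each other's error, and AtC3H17 OX lay above both. The bounds over WT were at least 51.5-fold and at least 2.88-fold, and over atc3h17-1 at least 49.3-fold and at least 2.76-fold. Both probes were kept through AtC3H17 OX alone, which fixes their direction, and they differ in size. Probe sequences, which would show which part of the transcript each one reads, are not given.

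CRB (AT1G03880), or cruciferin B, was covered by 3 probes none of which was well above background in any genotype. Its processed signals ran from 8.23 to 9.99 in WT, from 7.72 to 8.25 and from 8.09 to 10.4 on the AtC3H17 OX arrays, and from 8.44 to 8.91 in atc3h17-1. On the second AtC3H17 OX array the lowest signal called well above background was 35.9. No fold is given, since neither side of a comparison was well above background, and a change of CRB below that level would not be detectable by this measure.

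AT1G03890, the next gene to CRB on chromosome 1, encodes a further 12S globulin. Its probe A_84_P813199 was well above background on all 4 arrays, at 92.3 in WT, 169 and 241 in AtC3H17 OX and 127 in atc3h17-1, with software errors of 16.3, 18.8, 25.5 and 15.3. The AtC3H17 OX values were the highest, but they differed from each other by 0.52 on the log2 scale. Relative to WT they were 0.91 and 1.43 higher, so the 2-fold limit was passed on 1 array and narrowly missed on the other. The atc3h17-1 value was 0.55 above WT. The second probe, A_84_P12304, had signals of 18.2, 26.8, 12.9 and 8.01 in the same order of arrays and was not well above background on any.

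PAP85 (AT3G22640) had 1 probe, A_84_P22124. Its signal was 12.9 in WT, 69.6 and 53.6 in AtC3H17 OX and 41.6 in atc3h17-1, with software errors of 8.20, 10.4, 9.64 and 9.28. WT was the only genotype not well above background. Against it the measured difference was 2.28 in AtC3H17 OX and 1.78 in atc3h17-1, but as bounds both shrank, to at least 1.61-fold and at least 1.14-fold. AtC3H17 OX and atc3h17-1 differed by 0.32 and 0.69 on the log2 scale, array by array, both under 2-fold.

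No albumin was well above background in any genotype. SESA1, SESA2, SESA3 and SESA4 lie next to each other on chromosome 4 and SESA5 lies on chromosome 5. Similar copies can hybridise to each other's probes, so a signal there is not certain to belong to a single copy. The single probe of SESA1 had signals of 11.02 in WT, 13.8 and 17.8 in AtC3H17 OX and 9.73 in atc3h17-1, with errors between 9.21 and 10.98. SESA2 had 10.2, 23.7, 7.69 and 12.7 in that order, SESA4 9.23, 7.81, 8.32 and 8.54, and SESA5 8.80, 21.6, 8.02 and 8.25. The 3 probes of SESA3 lay between 7.74 and 11.2 on every array. SESA1 stood highest on both AtC3H17 OX arrays, whereas SESA2 and SESA5 did so on the first of them alone.

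Background-subtracted signals, taken before low values are replaced by the software, were set against the array's own negative control spots. The 97.5th percentile of those spots was 5.69 in WT, 4.58 and 8.73 in AtC3H17 OX and 5.79 in atc3h17-1, over 139 to 148 spots. Of the 11 storage protein probes that were not kept, 2 exceeded it in WT, 8 and 4 on the AtC3H17 OX arrays and 1 in atc3h17-1. Of all 10681 spots of probes that were not kept, 36.8%, 47.0%, 34.9% and 37.9% exceeded it, so a spot above this level was common on every array. Both AtC3H17 OX arrays and neither other array exceeded it for 3 of the 11 probes, against 2.8% of all 10561 probes not kept. These were a CRB probe, A_84_P13249, at 2.99 in WT, 4.98 and 10.6 in AtC3H17 OX and -0.06 in atc3h17-1, the SESA1 probe at -7.12, 12.1, 15.6 and 2.03, and a SESA3 probe, A_84_P68434, at -14.4, 6.01, 11.6 and -9.85. The other 2 probes of CRB and the other 2 of SESA3 did not share this order, and the pattern was looked up after the values were seen. The highest background-subtracted albumin signal was 25.7, for SESA2 on the first AtC3H17 OX array, against 3282 for CRA1 there.

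**Figure D2:**
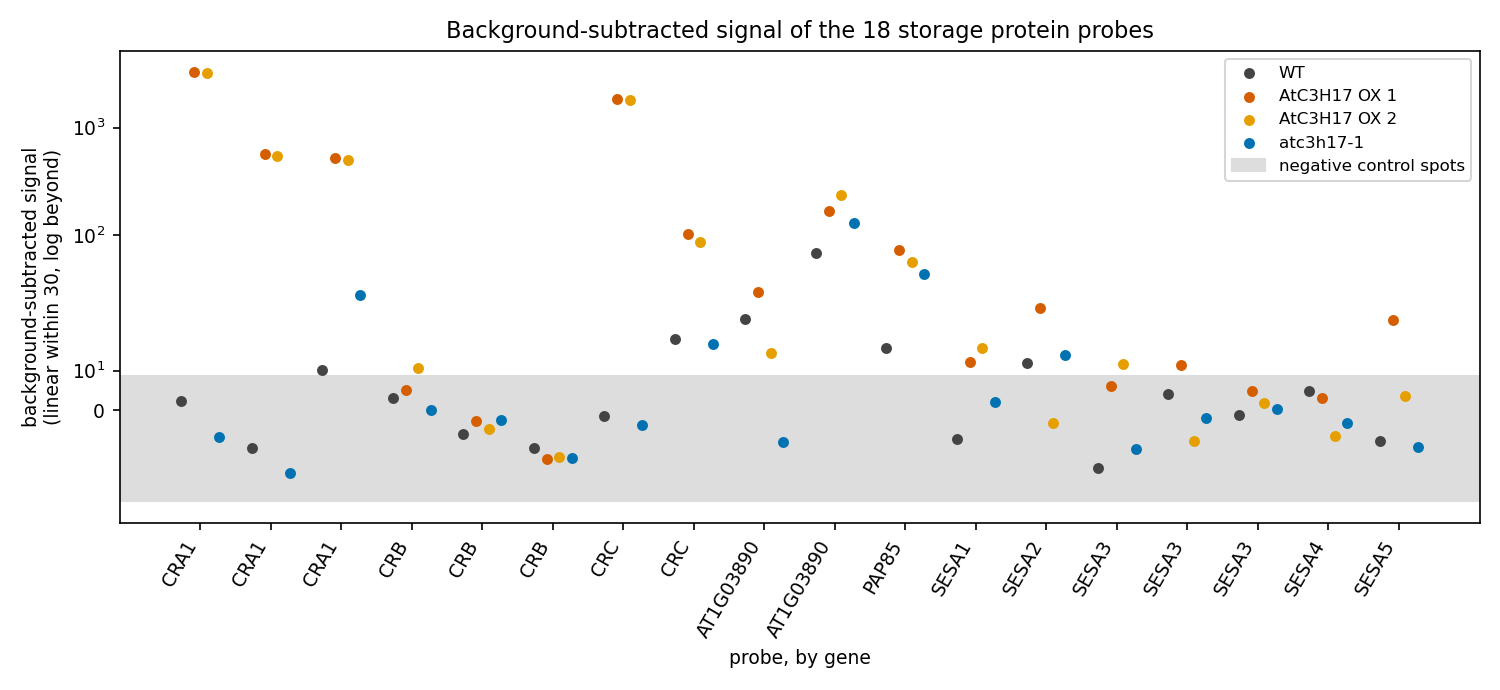
Background-subtracted signal of each of the 18 probes on each array, on an axis that is linear within 30 and logarithmic beyond it. Points are single spots coloured by array, and the grey band runs from the lowest 2.5th to the highest 97.5th percentile of the negative control spots on the 4 arrays. The CRA1 and CRC points of AtC3H17 OX stand far above the band while the CRB and albumin points reach no higher than the 25.7 of SESA2.

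In the comparison of AtC3H17 OX with WT, which the submitters' design names, 3 of the 10 genes were at least 2-fold higher on both arrays (CRA1, CRC and PAP85) by measured signal and 0 were lower. Only 4 of the 10 were kept and could be called, whereas the shares of all genes are of kept genes alone. By the bound, CRA1 and CRC remained and PAP85 did not, against 3.62% of all genes higher and 2.42% lower by the bound. With 1 sample per genotype, this is a count by size without a replicate check. Over all genes, 4.33% of 20181 were at least 2-fold higher on both arrays by measured signal, 2.76% lower and 7.1% either. CRA1 and CRC passed the filter only because they were bright in AtC3H17 OX, so their presence among the kept genes already required a difference. AT1G03890 was the kept gene that was not called, with a mean difference of 1.17. The array differences were 6.53 and 6.56 for CRA1, 5.13 and 5.30 for CRC and 2.10 and 2.46 for PAP85, as measured. These ranges are those of an array pair that counts as 1 sample.

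The WT array had the noisier spots, with a median SD of 0.185 among repeated spots. The comparison of AtC3H17 OX with atc3h17-1 leaves that array out. In it CRA1 was at least 24.1-fold higher and the bound for CRC was 11.7-fold. Of the 10 members, 4 of them kept, 2 were at least 2-fold higher on both arrays, against 2.71% of all genes. Lower by that rule were 0 members and 1.65% of all genes, and 4.36% differed in either direction. AT1G03890 and PAP85 were 0.62 and 0.50 higher and were not called. With normexp background correction, which keeps an offset under every signal, the CRA1 and CRC differences from WT were 3.75 and 2.81 and PAP85 was at 0.65, under 2-fold. The dim CRC probe A_84_P807923 was then at 0.90, under 2-fold as well.

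**Figure D3:**
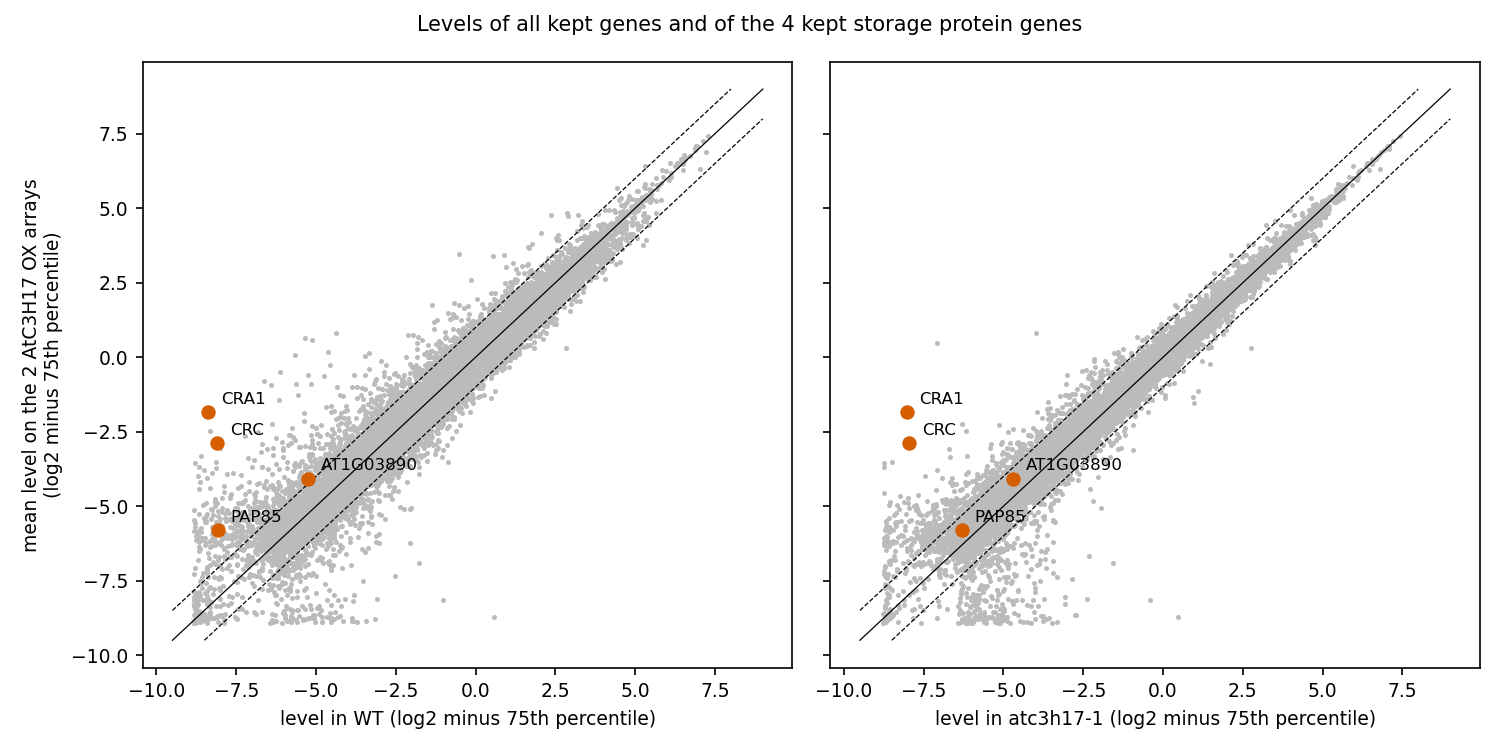
Mean level of each kept gene on the AtC3H17 OX arrays against its level in WT (left) and in atc3h17-1 (right), both as log2 signal minus the 75th percentile of the array. Grey points are the 20462 kept genes, orange points the 4 kept storage protein genes, the solid line marks equality and the dashed lines a 2-fold difference. CRA1 and CRC lie far above the 2-fold line in both panels, as does AT5G15560 among the grey points. AT1G03890 lies close to the 2-fold line on the left.

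In the comparison of atc3h17-1 with WT, 1 of the 10 genes, PAP85, was at least 2-fold higher by its measured signal and 0 were lower, against 4.27% higher, 4.2% lower and 8.47% in either direction of 20312 genes. Only PAP85 and AT1G03890 could be called here, since CRA1 and CRC were not well above background in either genotype and have no fold. The CRC probe A_84_P807923 stood at a background-subtracted signal of 17.9 in WT and 16.7 in atc3h17-1, above the negative controls on both. Probe A_84_P810533 of CRA1 stood at a background-subtracted signal of 29.0 in atc3h17-1 and 10.1 in WT, while A_84_P20648 and A_84_P810531 stood at -6.84 and -15.9 in atc3h17-1. The 2 comparisons share the WT array, so an error of a WT spot would enter both.

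The detection pattern of CRA1 and CRC was counted across the array after their values were seen. Both were kept through AtC3H17 OX alone, so their own place in these counts was fixed in advance and supports nothing. Of 20462 kept genes, 150 (0.733%) had all their kept probes well above background on both AtC3H17 OX arrays and on neither other array. Among the 6058 genes with several kept probes there were 6 (0.099%), and both cruciferins were among them. The other 4, looked up after their values were seen, included OLEO2 (at least 2.66-fold above WT) and OLEO1 (at least 2.14-fold), the oleosins that coat oil bodies of the seed. CYP71A13, an enzyme of camalexin synthesis, followed at least 2.06-fold above WT, and AT5G22430 at least 1.43-fold. By the distance between mean-centred levels over the 4 arrays, CRC lay 1.24 log2 units from CRA1, PAP85 5.08 and AT1G03890 5.49, with a median of 6.39 over 20461 genes. The WT and atc3h17-1 levels of CRA1 and CRC that enter this distance were not well above background, and both genes were kept through AtC3H17 OX alone, so their closeness rests on those and is a description only.

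The 5 genes other than members nearest to CRA1 were AT5G15560 (distance 1.22), AT3G54800 (1.37), MRD1 (1.39), the beta-glucosidase gene BGLU19 (1.63) and the Nudix hydrolase gene NUDT24 (2.03), each with 1 kept probe. AT5G15560 was at least 7.60-fold, AT3G54800 at least 7.06-fold and BGLU19 at least 7.91-fold above WT, and all 3 were not well above background in atc3h17-1 either. NUDT24 was at least 16.2-fold above WT but was also above background in atc3h17-1. MRD1 was above background on all 4 arrays, and in AtC3H17 OX it was 5.19 above WT on the log2 scale.

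Oil body proteins accompany storage proteins in the maturing seed. Of the 8 listed genes 6 were kept, and OLEO1 and OLEO2 were at least 2-fold higher in AtC3H17 OX and 0 lower, against 4.33% and 2.76% of all genes. The median of the 6 was 1.05 (-0.03 over all genes), but 3 of them were kept through AtC3H17 OX alone, which fixes their direction. OLEO1 had levels of -7.62 in WT, -5.41 and -5.37 in AtC3H17 OX and -8.58 in atc3h17-1, as log2 relative to the 75th percentile. OLEO2 had -7.53, -5.04, -5.12 and -7.70. Like CRA1 and CRC, both were above background in AtC3H17 OX alone. OLEO3, OLEO4 and AT3G01570 were above background in all genotypes and were not called. In AtC3H17 OX they were at -0.62, 0.37 and 0.96 against WT, and OLEO3 was lower on both arrays. The steroleosin gene HSD1 differed by 1.15 as measured but missed 2-fold on 1 array, and the caleosin genes ATS1 and ATPXG2 were not well above background on any array. In atc3h17-1, 0 of the 3 oil body genes that could be compared with WT were called, against 8.47% of all genes.

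Late embryogenesis genes, whose proteins protect the drying embryo, were the list with the most genes called. Of 18 listed, 16 were kept and 9 were at least 2-fold higher in AtC3H17 OX by measured signal and 1 lower, against 4.33% and 2.76% of all genes. By the bound 6 were higher, against 3.62%, and 5 of the 16 were kept through AtC3H17 OX alone. On the log2 scale GEA6 (EM6) was 4.71 higher in AtC3H17 OX and 3.37 higher in atc3h17-1, and was above background in all genotypes. The peroxiredoxin gene PER1 was at least 5.65-fold and AT3G17520 at least 5.93-fold above WT in AtC3H17 OX. EM1 was at least 2.60-fold, LEA4-5 at least 2.40-fold, AT2G42560 at least 1.97-fold, AT3G15670 at least 1.59-fold and AT5G44310 at least 1.41-fold higher. LEA7 was 1.79 higher on the log2 scale, and M10 was at least 2.03-fold lower. In atc3h17-1, 3 of 11 were higher and 2 lower, against 4.27% and 4.2% of all genes. The 3 were GEA6, AT3G17520 (at least 1.58-fold) and LEA4-5 (at least 1.42-fold). The 2 lower ones were ECP63 (at least 1.03-fold) and LEA18 (at least 1.42-fold). The median difference of the kept genes in AtC3H17 OX was 2.03, and 8 of them were not well above background in WT and were kept through another genotype.

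The regulators that act on storage protein genes did not move in 1 direction. Of 12 listed activators, 9 were kept and 8 could be compared in AtC3H17 OX, with 2 higher and 1 lower by measured signal (4.33% and 2.76% of all genes), 1 higher by the bound, and a median of 0.04. FUS3, a B3-domain activator of cruciferin and albumin genes, was at least 1.98-fold higher, and the bZIP factor ABI5 at least 2.60-fold. LEC1, a CCAAT-box factor that acts upstream of them, was lower, at -1.99. LEC2 was at -0.24, from a WT spot not well above background, and ABI3 was not well above background in WT and AtC3H17 OX, while in atc3h17-1 it was at least 1.63-fold above WT. The bZIP partners BZO2H1, BZIP25 and BZIP53, known to act on albumin and cruciferin promoters, were at 0.27, -0.04 and -0.08. ABI5 was also higher in atc3h17-1, by at least 3.16-fold.

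None of the 11 repressors of the seed programme was at least 2-fold different in either line by size. Over all genes, 7.1% were in AtC3H17 OX and 8.47% in atc3h17-1, so with 11 genes this count is near those shares. Their median was 0.01 in AtC3H17 OX, and the values furthest from WT were HSI2 (VAL1) at 0.76, VAL3 at -0.70 and ASIL1 at 0.59. The chromatin remodeller gene PKL was at -0.04 and the Polycomb methyltransferase genes CLF and SWN at -0.37 and 0.02. In atc3h17-1 HSI2 was at -0.08 and PKL at -0.23.

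Genes for sorting and cutting storage proteins were all kept, 11 of 11, and 1 was at least 2-fold higher, against 4.33% of all genes. That was BETA-VPE, the vacuolar processing enzyme best known from seeds, whose levels were -1.76 in WT, -0.58 and -0.55 in AtC3H17 OX and -0.97 in atc3h17-1. Both AtC3H17 OX values lay above the other genotypes, by 1.20 over WT. GAMMA-VPE was at 0.98 and DELTA-VPE at 0.58 in AtC3H17 OX, while DELTA-VPE was lower, at -1.10, in atc3h17-1. The sorting receptor gene VSR1 was at 0.36.

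Among 5 other cupin genes related to globulins, 4 were kept. By measured signal 1 was at least 2-fold higher in AtC3H17 OX, against 4.33% of all genes. This was AT2G28490 (2.49, at least 1.73-fold by the bound), which was kept through AtC3H17 OX alone, so its direction was fixed. AT1G07750 was at 0.66 and AT2G28680 at 0.45. In atc3h17-1, 1 of the 3 cupin genes that could be compared was higher, AT2G18540 by at least 5.55-fold, against 4.27% of all genes. Of 7 genes for breaking down storage lipid, 1 was at least 2-fold higher in AtC3H17 OX, against 4.33% of all genes. That was the isocitrate lyase gene ICL, 2.09 higher on the log2 scale as the mean of 2 kept probes. In atc3h17-1 it was at -0.19. MLS, the malate synthase gene that acts beside ICL in the glyoxylate cycle, was at -0.54 in AtC3H17 OX and -1.17 in atc3h17-1. It was the 1 of 7 called lower in atc3h17-1, against 4.2% of all genes. The thiolase gene PKT3 was at 0.46 in AtC3H17 OX. Counts of 1 in lists this short are a description only.

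**Figure D4:**
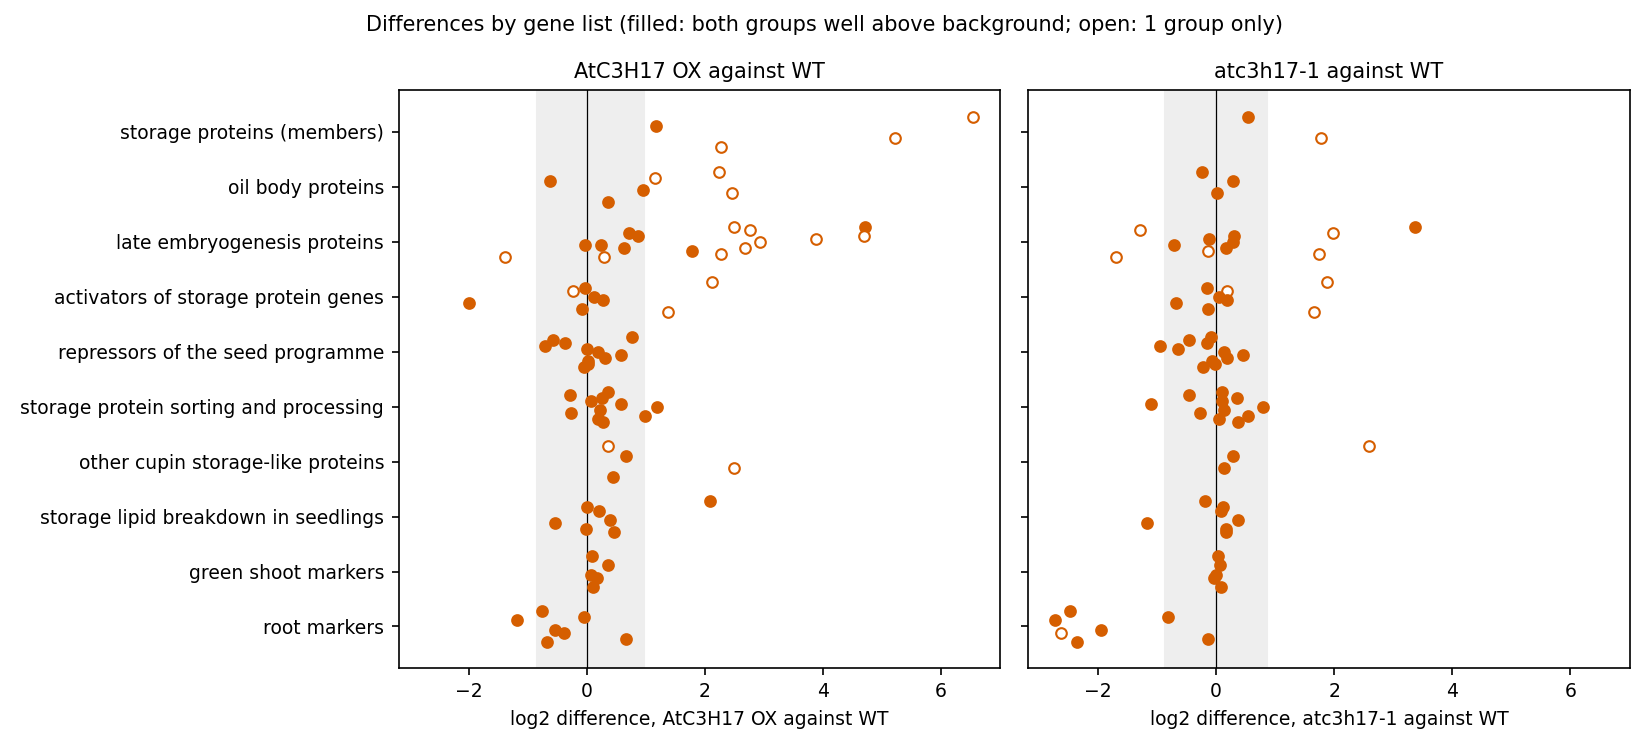
Log2 difference from WT of each gene of the storage protein set and of the related lists, in AtC3H17 OX (left) and atc3h17-1 (right), from measured signals. Filled circles were above background in both genotypes and open circles in 1 only, where the value is not a bound. The grey band spans the 5th to 95th percentiles of all genes. Late embryogenesis and storage protein genes reach furthest right in AtC3H17 OX, and root markers furthest left in atc3h17-1.

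Tissue content was set beside these values. The summed level of the oil body list was -1.76 in WT, -1.25 and -1.27 in AtC3H17 OX and -1.79 in atc3h17-1, and that of the late embryogenesis list was -1.93, -0.06, -0.07 and -1.31. The summed level of root markers was 3.06, 2.83, 2.79 and 1.89. Linear levels were summed, so the brightest gene of a list weighs most. That was OLEO4 for oil bodies (-2.08 in WT) and PHT1;1 for root markers (2.49 in WT). For the late embryogenesis list in AtC3H17 OX it was GEA6 (-1.43 and -1.47). Genes known from seed or embryo tissue did not share 1 pattern. Well above background in AtC3H17 OX alone were CRA1, CRC, 3 of the 6 kept oil body genes and 5 of the 16 kept late embryogenesis genes. OLEO3, OLEO4, M17, RAB28 and AtLEA4-1 were among those above background in all 3 genotypes. M10 was above background in WT and atc3h17-1 but not in AtC3H17 OX. CRB, all 5 albumins and both caleosin genes were not well above background in any genotype. In whole seedlings, fewer cells of a type and less RNA per cell cannot be told apart, and the part of tissue content in these differences was not tested.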

How the data were processed

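Total RNA of whole seedlings was labelled with Cy3 and hybridised to 4 Agilent arrays, per the labels' protocols. Per the file headers, the intensity values come from Agilent Feature Extraction 11.0.1.1. It subtracted background and removed spatial trends within an array, with no scaling between arrays. The authors' deposited series table holds the same linear intensities. The same software, per the file headers, flagged spots as well above background, as saturated (0 spots) or as outliers. The 75th percentile of the signal was 3487 in WT, 3407 and 3383 in AtC3H17 OX and 3274 in atc3h17-1, and 72.0% to 74.5% of spots were well above background.

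Here, levels are log2 of the processed signal minus the array's 75th percentile. Control and outlier spots were left out. Of 43603 probes, 34348 were matched to 1 locus by transcript accession through the TAIR10.1 RefSeq table, and 9255 were not. The arrays are annotated on TAIR10, so no coordinates are given. Probes were kept where 1 or more genotypes had them well above background on each of their arrays. A gene's level was the mean of its kept probes, for 20462 genes. A gene was called at 2-fold or more, on both arrays for AtC3H17 OX, if its brighter group was above background. A bound sets the brighter group against the higher of the dim signal and the array's lowest signal well above background. As an alternative, limma 3.58.1 (R 4.3.3) was fitted over all kept genes and tested on simulated data. It has 1 residual degree of freedom, from the AtC3H17 OX pair that counts as 1 sample, so its p-values are not printed and its calls support nothing here. Other steps ran in Python 3.11.15 (numpy 2.4.6, pandas 2.3.3, matplotlib 3.10.9). The number of arrays limits the precision.

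The members and lists were chosen with earlier results of these data known. Named genes are all 10 members, in each list the 3 furthest from WT in AtC3H17 OX and those called, and the 5 profiles nearest to CRA1. Regulators, processing genes and other listed genes named beside these, and genes that differed in atc3h17-1, were chosen after their values were seen. A planned motif search in promoters was not run, since promoter, protein and probe sequences were not used here.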

Additional observations from a re-analysis of the deposited data

How the results depend on the processing

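CRA1 and CRC stayed at least 2-fold above WT under normexp, quantile normalization, no filter, the brightest probe, the authors' series value table and bounds, and 2 members were above atc3h17-1 under each of these. For CRA1 and CRC 2 of these settings could not differ from the main one. All their probes were kept, so leaving out the filter changed nothing, and the series table holds the same intensities. CRA1 ranged from 3.75 to 8.44 and CRC from 2.81 to 7.93 on the log2 scale. When only probes well above background on all 4 arrays were used, neither had one, and the counts of members higher than WT and than atc3h17-1 in AtC3H17 OX, and higher than WT in atc3h17-1, were all 0. That setting also left 940 genes at least 2-fold different in AtC3H17 OX (1432 otherwise) and 899 in atc3h17-1 (1721 otherwise), from fewer genes tested. The single member higher in atc3h17-1, PAP85, was lost with normexp (0) and with bounds (0), and those settings left 2 of the 3 members called in AtC3H17 OX. Bounds over all genes, added after seeing the data, left 1220 genes different in AtC3H17 OX. PAP85 ranged from 0.65 to 2.46 in AtC3H17 OX and AT1G03890 from 0.62 to 1.43. In atc3h17-1 AT1G03890 turned to -0.27 without a filter, where its dim probe entered. Leaving out 1 AtC3H17 OX array at a time gave 3 to 4 members above WT, 2 above atc3h17-1 and 1606 to 1626 genes different from WT. Calls over all genes were 874 higher and 558 lower in AtC3H17 OX and 868 and 853 in atc3h17-1, or 859 and 286, and 815 and 424, with normexp. Locus names were not in the annotation column, so matching by them gave no further value. No paired analysis was possible because WT and atc3h17-1 have 1 array each. Signal over background limits every statement on CRB and the albumins.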

Other observations

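The chromosomal neighbours of the storage protein genes were looked up in the order of the RefSeq table, after the members' values were seen. Of the 12 genes that lie nearest to CRA1, CRC and PAP85 in that order, 2 on each side, 11 were kept. Of these, 0 reached a 2-fold difference from WT, by size, on the AtC3H17 OX arrays, against 7.1% of all genes. In atc3h17-1, AT3G22620 near PAP85 reached it, at -1.01, against 8.47% of all genes. With so few genes, these counts are near the shares of all genes and say nothing particular about the loci. FLA13, which follows CRA1 on chromosome 5, was at -0.23 and ABCI21, which precedes it, at -0.88. NAC074, which follows CRC on chromosome 4, was at 0.79 and PHB1, which precedes it, at -0.08. On chromosome 1, AT1G03890 stands next to CRB, which was not above background on any array, and ABCI18 on its other side was at -0.24.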
